A study of Mus musculus with 77 samples.

Results

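The guidance genes examined here are the semaphorins, plexins, neuropilins, ephrins, Eph receptors, netrins, netrin-G proteins, the netrin receptors Dcc and Unc5, Slits and Robos. They were found by gene symbol: 161 of the 45101 probe sets on the array carried a single symbol of these families, and they stood for 72 genes. Of these, Unc50, Unc5cl and Plxna4os1 only share the letters of a family name and were set aside, which left 69 guidance genes. Each gene was read from its probe set with the highest mean, and 57 of the 69 had a mean above the 40th percentile of all probe sets (3.55 on the log2 scale) and were tested among 13271 genes. The tested genes were 16 of 20 semaphorins, both neuropilins, 8 of 9 plexins, 6 of 8 ephrins, 12 of 13 Eph receptors, 3 netrins, both netrin-G genes, 4 of 5 netrin receptors, 3 Slits and 1 of 4 Robos.

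The 77 arrays each measured ribosome-bound messenger RNA from a single mouse, obtained by translating ribosome affinity purification, which pulls down ribosomes carrying a fluorescent subunit, EGFP-L10a, made in 1 cell type, together with their messages. A bacterial artificial chromosome with the Drd1 regulatory region (Drd1::EGFP-L10a) tagged direct pathway spiny projection neurons (dSPN), and one with the Drd2 region (Drd2::EGFP-L10a) tagged indirect pathway neurons (iSPN), so that cell type goes with transgenic line, and the Drd2 region is also active in cholinergic interneurons. All mice were males on a C57BL/6J background, 9 to 14 weeks old, and the dorsal striatum of the operated side was taken. After 6-hydroxydopamine (3.2 µg/µl), a toxin that kills dopamine neurons, in the right medial forebrain bundle and 3 weeks of recovery, lesioned mice received saline, low-dose levodopa (1 mg/kg on days 1 to 3, then 2 mg/kg on days 4 to 9) or high-dose levodopa (3 and then 6 mg/kg), both with 12 mg/kg benserazide, a blocker of peripheral decarboxylase. Control mice had a mock lesion and received saline. In dSPN there were 11 arrays after lesion with saline, 12 with the low dose, 11 with the high dose and 10 after mock lesion, and in iSPN 7, 8, 8 and 10.

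The labels of the lines were borne out: the dopamine receptor message Drd1 lay between 11.11 and 11.93 in dSPN arrays, against 8.68 to 10.54 in iSPN arrays, and Drd2 between 5.14 and 8.08 in dSPN arrays, against 11.90 to 12.73 in iSPN arrays. Glial messages were present and moved with levodopa in dSPN. Of 11 oligodendrocyte markers, 9 were lower at the low dose and 10 at the high dose than with saline, and the mean of the list lay between 6.98 and 8.26 with saline, 5.82 and 7.03 at the low dose and 5.73 and 7.01 at the high dose. Of 9 astrocyte markers, 5 were lower at the high dose. Their list means were 5.47 to 6.57 at the high dose and 5.41 to 6.65 at the low dose, against 6.33 to 7.14 with saline. A list of 6 iSPN markers in dSPN arrays averaged 6.68 with saline, 6.01 at the low dose and 6.10 at the high dose. In the same order, dopaminergic terminal markers (4.68, 5.22 and 5.44) and cortical pyramidal neuron markers (6.02, 6.08 and 6.07) were not lower. Mbp, the myelin basic protein message, averaged 9.25 at the high dose and 10.62 with saline. Of 6 microglial and 5 endothelial markers none was called at the high dose. Fits with the oligodendrocyte and astrocyte list means as covariates were run as an alternative. The array numbers in the sample titles were split into 7 runs, here called number stretches. A new run starts where the last number of the title drops back while the array number rises. No source used here says what the stretches stand for, and stretch as a block was a further alternative. In bulk messenger RNA of this kind, fewer contributing cells and less message per cell cannot be told apart, and a log2 value of one probe set cannot be set against that of another.

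Guidance proteins steer growing axons, and many stay in the adult brain, where they act on spines, synapses and myelin. Semaphorins signal through plexins, and the secreted class 3 semaphorins bind neuropilins, which have no signalling domain of their own and pair with A-type plexins. Ephrins are membrane-bound ligands of the Eph receptor tyrosine kinases, A-type ephrins being lipid-anchored and B-type ephrins spanning the membrane. Netrins attract axons through Dcc and repel them through Unc5 receptors, Slits repel through Robos, and netrin-G proteins are lipid-anchored synaptic adhesion molecules that bind NGL partners rather than Dcc.

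The promoters of 3 genes described below, and that of Epha2, are shown because levodopa acts through cAMP-linked dopamine receptors and the letters of the cAMP response element (CRE), of AP-1 sites, to which Fos proteins bind, and of EGR sites can be read in them. Each window runs from 250 bases before to 50 bases after a transcription start in RefSeq (GRCm38.p6), 5′ to 3′ along the gene's strand, and capitals mark matches on either strand to TGACGTCA (CRE), TGACG (the short CRE), TGANTCA (AP-1) or GCGNGGGCG (EGR). Nrp1 lies on the plus strand at chr8:128358823-128359122, Sema4c on the minus strand at chr1:36558332-36558631, Efnb1 on the plus strand at chrX:99135811-99136110 and Epha2 on the plus strand at chr4:141300971-141301270. Nrp1, Sema4c and Efnb1 rose most at the high dose in dSPN among tested guidance genes with a window, and none was available for Plxna4. Epha2 lay below the filter and was named after its values were seen.
Nrp1: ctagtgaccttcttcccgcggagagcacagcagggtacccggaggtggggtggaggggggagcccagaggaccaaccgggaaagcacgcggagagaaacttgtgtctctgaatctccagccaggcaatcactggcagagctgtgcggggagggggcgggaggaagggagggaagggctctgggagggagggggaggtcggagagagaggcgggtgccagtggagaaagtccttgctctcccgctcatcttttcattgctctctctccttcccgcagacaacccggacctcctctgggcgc
Sema4c: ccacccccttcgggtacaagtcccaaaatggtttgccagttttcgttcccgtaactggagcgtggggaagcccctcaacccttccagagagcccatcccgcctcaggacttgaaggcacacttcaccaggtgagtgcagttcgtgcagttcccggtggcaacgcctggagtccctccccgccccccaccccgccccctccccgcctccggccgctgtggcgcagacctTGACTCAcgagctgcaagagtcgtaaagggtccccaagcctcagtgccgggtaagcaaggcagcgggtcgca
Efnb1: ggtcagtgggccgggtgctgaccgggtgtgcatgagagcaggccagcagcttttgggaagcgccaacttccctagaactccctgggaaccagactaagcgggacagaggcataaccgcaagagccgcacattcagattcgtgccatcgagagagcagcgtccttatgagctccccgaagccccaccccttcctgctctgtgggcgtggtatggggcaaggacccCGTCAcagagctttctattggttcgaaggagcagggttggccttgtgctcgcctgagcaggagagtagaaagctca
Epha2: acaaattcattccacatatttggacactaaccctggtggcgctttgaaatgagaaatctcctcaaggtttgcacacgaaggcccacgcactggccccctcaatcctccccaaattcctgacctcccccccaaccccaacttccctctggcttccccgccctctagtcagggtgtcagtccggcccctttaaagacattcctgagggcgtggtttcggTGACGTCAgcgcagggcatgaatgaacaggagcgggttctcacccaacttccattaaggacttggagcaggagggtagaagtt
The Nrp1 window holds none of these letters. The first Sema4c window holds an AP-1 match 22 bases before the start, the Efnb1 window a short CRE on the opposite strand 26 bases before it, and the Epha2 window a whole CRE 33 bases before it, which contains the short CRE on both strands. Of 59 guidance genes with a window, Epha2 was the only one with a whole CRE (1.695%), against 2.031% of 27025 genes in the table. AP-1 letters stood in 5.085% of guidance genes and 8.973% of all genes, and short CREs in 16.949% and 23.045%. EGR letters stood in 14 guidance genes (23.729%), against 6.272% of all genes, but the median GC content of the guidance windows was also higher, 64% against 52.667%. Among 17491 protein-coding genes EGR letters stood in 8.507%, with a median GC content of 56.333%. By response at the high dose in dSPN, EGR letters stood in 28.571% of 7 guidance genes called higher, 23.077% of 13 called lower and 25% of 28 not called. A match is a string of letters and was not tested for binding.

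The question of the first comparison is what loss of dopamine does to these genes in dSPN. Lesioned mice with saline were set against mock-lesioned mice with saline, and no guidance gene passed the test (limma on all 77 arrays, Benjamini-Hochberg adjusted over 13271 genes, called at an adjusted p under 0.05). Across all genes 2.48% were called, 0.64% higher and 1.84% lower, and in 0.181% the groups did not overlap, as in none of the guidance genes. At an unadjusted p under 0.05 there were 8 of 57 guidance genes, against 1692 of all 13271 genes. The median change of the 57 was 0.06, against 0.00 for all genes.

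The smallest adjusted p belonged to Slit1, a secreted repellent. Slit1 averaged 5.50 ± 0.27 in lesioned dSPN and 5.21 ± 0.29 in mock-lesioned dSPN (SD, n = 11 and 10), a difference of 0.30 on the log2 scale (limma adjusted p = 0.097). Ephb6, an Eph receptor without kinase activity, averaged 7.11 ± 0.34 in lesioned dSPN and 6.51 ± 0.46 in mock-lesioned dSPN, a difference of 0.60 (adjusted p = 0.103). With array weights 2 guidance genes were called in this comparison, and with the glial covariates 1.

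The lesion difference of Nrp1 was 0.24, with a 95% confidence interval from -0.28 to 0.76, that of Plxna2 was 0.04 (-0.28 to 0.36) and that of Epha4 was -0.02 (-0.24 to 0.19). For Sema4c the interval was wider, -0.65 to 0.62 around -0.02. An adjusted p above the threshold does not show that the groups were equal, and these intervals give what the arrays allow.

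**Figure D1:**
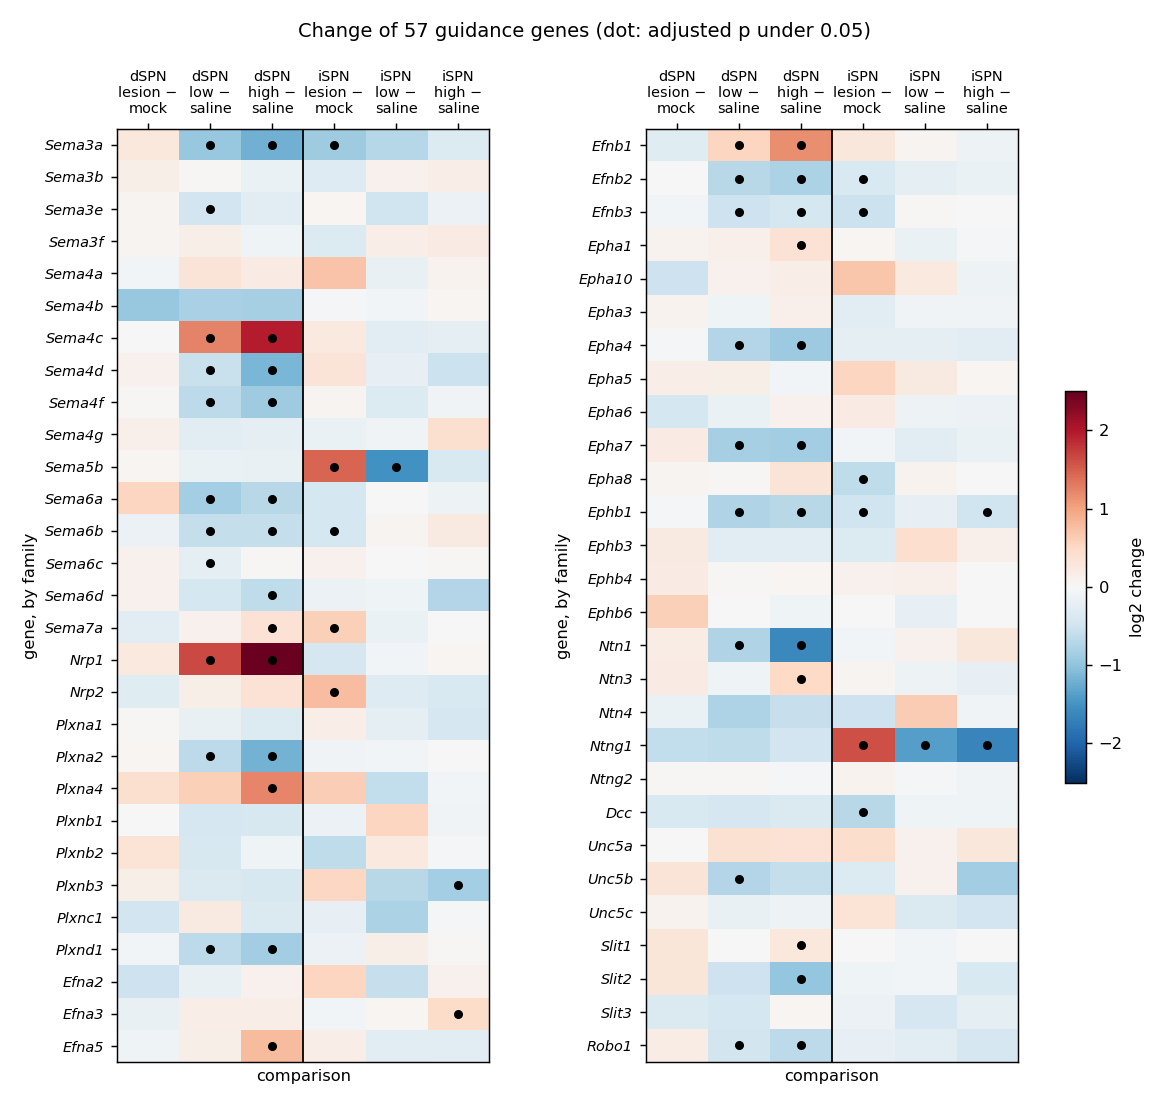
Log2 change (colour, blue lower and red higher in the group named first) of 57 guidance genes (rows, by family) in 3 comparisons of dSPN and 3 of iSPN (columns), with a dot where the adjusted p is under 0.05. The dSPN lesion column has no dot, both dSPN levodopa columns have many, and Nrp1 at the high dose is the highest value at 2.46.

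High-dose levodopa changed 25 of 57 guidance genes in dSPN, 9 higher and 16 lower than lesioned dSPN with saline. The share of 43.9% was close to the 45.6% called among all genes (20.1% higher and 25.5% lower), so the number of changed guidance genes was near that of the array as a whole. The median change of the 57 was -0.18, against -0.04 for all genes. The highest were the neuropilin Nrp1, the semaphorin Sema4c, the plexin Plxna4 and the ephrin Efnb1, and the lowest were netrin-1 (Ntn1), Sema3a, Plxna2 and Sema4d. In 6 of the 57 the arrays of the groups did not overlap, against 11.4% of all genes: Nrp1, Sema4c, Plxna2, Epha4, Efnb2 and Sema3a. By family, 2 of 16 semaphorins rose and 6 fell, 1 of 8 plexins rose and 2 fell, 2 of 6 ephrins rose and 2 fell, and 1 of 12 Eph receptors rose and 3 fell. None of the 4 netrin receptors or the 2 netrin-G genes passed the test.

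Nrp1, the co-receptor that binds class 3 semaphorins and vascular endothelial growth factor, changed most. In lesioned dSPN it lay between 4.33 and 6.53 with saline (median 5.58, n = 11), 6.12 and 7.80 at the low dose (median 7.39, n = 12) and 7.17 and 8.66 at the high dose (median 8.18, n = 11). Every high-dose array was above every saline array, and the low-dose arrays lay between, overlapping both. The high-dose change was 2.46 on the log2 scale (SE 0.25, adjusted p = 3.87e-13), a 5.52-fold difference, and the low-dose change was 1.64 (SE 0.25, adjusted p = 1.35e-07). The other 2 probe sets of Nrp1 above the filter changed by 2.82 and 3.11 at the high dose.

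Sema4c, a transmembrane semaphorin that binds plexin-B2, was raised at both doses. Its values in lesioned dSPN ran from 5.0 to 7.53 with saline (median 7.18), 7.55 to 8.44 at the low dose (median 8.08) and 8.37 to 9.24 at the high dose (median 8.84). Neither dose group overlapped saline, though at the low dose the lowest array lay just above the highest saline array. The change was 1.96 at the high dose (SE 0.31, adjusted p = 2.13e-07) and 1.25 at the low dose (SE 0.31, adjusted p = 0.000759). At the low dose the call was lost with number stretch as a block (1.09, adjusted p = 0.122).

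Efnb1, a transmembrane ephrin that also signals backwards into its own cell, ranged from 4.92 to 6.44 with saline (median 6.06), 5.97 to 6.73 at the low dose (median 6.47) and 6.26 to 7.88 at the high dose (median 6.98). Its groups overlapped, and 3 high-dose arrays, at 7.69, 7.83 and 7.88, stood above the rest. The high-dose change was 1.16 (SE 0.18, adjusted p = 2.1e-07), and the low-dose change was 0.54 (SE 0.18, adjusted p = 0.014). The low-dose call was lost with the glial covariates (0.50, adjusted p = 0.101) and with number stretch as a block (0.40, adjusted p = 0.429).

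Plxna4, a plexin that pairs with neuropilins as receptor of class 3 semaphorins, had values of 4.64 to 6.36 with saline (median 5.40), 4.60 to 7.20 at the low dose (median 6.01) and 5.32 to 7.87 at the high dose (median 6.74). The groups overlapped widely. It rose by 1.22 at the high dose (SE 0.28, adjusted p = 0.00024), and its low-dose difference of 0.60 was not called (adjusted p = 0.087). Efna5, a lipid-anchored ephrin, rose by 0.79 at the high dose (SE 0.20, adjusted p = 0.000805), with 7.05 to 8.29 at the high dose (median 7.58), against 6.26 to 7.36 with saline (median 6.99). The change of Efna5 was 1.29 with the glial covariates and 0.47 as the mean of its probe sets.

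The remaining 4 genes that rose at the high dose did so by less: Ntn3 by 0.50, Sema7a by 0.36, Epha1 by 0.36 and Slit1 by 0.26. All 4 calls were lost with the glial covariates, at adjusted p of 0.13, 0.535, 0.328 and 0.074 in that order. The changes in that fit were 0.51, 0.16, 0.16 and 0.29, so those of Ntn3 and Slit1 were not smaller. Ntn3, Sema7a and Slit1 also lost theirs with number stretch as a block.

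Several receptors fell. Plxna2, a plexin of class 3 and class 6 semaphorins, ranged from 8.67 to 9.84 with saline (median 9.01), 7.88 to 9.16 at the low dose (median 8.37) and 7.28 to 8.33 at the high dose (median 7.96). No high-dose array reached the lowest saline array. It fell by 1.19 at the high dose (SE 0.16, adjusted p = 1.74e-09) and by 0.66 at the low dose (SE 0.15, adjusted p = 0.000421), and the low-dose call was lost with number stretch as a block (-0.49, adjusted p = 0.205). As the mean of its probe sets the high-dose change was -0.77.

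Plxnd1, the receptor of Sema3e, ranged from 6.77 to 7.84 with saline (median 7.37), 6.33 to 7.13 at the low dose (median 6.68) and 5.83 to 7.23 at the high dose (median 6.46). Both dose groups overlapped saline at their upper end. It fell by 0.87 at the high dose (SE 0.14, adjusted p = 5.12e-07) and by 0.66 at the low dose (SE 0.14, adjusted p = 0.000113). Sema3e, its secreted ligand, fell by 0.49 at the low dose (SE 0.14, adjusted p = 0.0044), a call lost with number stretch as a block (adjusted p = 0.0762), and its high-dose difference of -0.29 was not called (adjusted p = 0.0905).

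Among Eph receptors, Epha4, which binds both A-type and B-type ephrins, had values of 9.68 to 10.23 with saline (median 9.84), 8.98 to 9.63 at the low dose (median 9.13) and 8.64 to 9.40 at the high dose (median 9.05). Neither dose group overlapped saline. It fell by 0.90 at the high dose (SE 0.10, adjusted p = 2.32e-11) and by 0.73 at the low dose (SE 0.10, adjusted p = 1.61e-08), and its 5 probe sets changed by -1.06 to -0.77 at the high dose. Epha7 fell by 0.88 at the high dose (adjusted p = 1.57e-05) and 0.82 at the low dose (adjusted p = 5.64e-05), and Ephb1 by 0.69 (adjusted p = 5.16e-06) and 0.75 (adjusted p = 9.89e-07). Epha5, a receptor of Efna5, did not pass the test at either dose, with differences of -0.07 at the high dose and 0.15 at the low dose.

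B-type ephrins split. Efnb2 ranged from 9.40 to 10.12 with saline (median 9.91), 8.87 to 9.46 at the low dose (median 9.15) and 8.65 to 9.36 at the high dose (median 9.10), so that the high-dose arrays lay wholly below saline while Efnb1, above, rose. Efnb2 fell by 0.80 at the high dose (SE 0.10, adjusted p = 3.3e-10), and Efnb3 by 0.44 (SE 0.11, adjusted p = 0.000376). At the low dose they fell by 0.69 and 0.51 (adjusted p = 2.98e-08 and 6.17e-05).

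Of the secreted cues, Sema3a, which collapses growth cones through Nrp1 and A-type plexins, ranged from 8.54 to 9.13 with saline (median 8.86), 7.55 to 8.48 at the low dose (median 7.90) and 7.22 to 7.96 at the high dose (median 7.60). Every array of either dose lay below every saline array. It fell by 1.21 at the high dose (SE 0.24, adjusted p = 2.47e-05) and by 0.95 at the low dose (SE 0.24, adjusted p = 0.000923), and the low-dose call was lost with number stretch as a block (-0.92, adjusted p = 0.1). The SE of Sema3a was set in part by iSPN arrays, whose spread was larger (SD 0.17 in lesioned dSPN with saline and 0.80 in lesioned iSPN with saline).

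Ntn1, the founding netrin, ranged from 4.18 to 6.57 with saline (median 5.61), 3.92 to 5.75 at the low dose (median 4.64) and 2.62 to 4.81 at the high dose (median 3.79). Its groups overlapped, and the 3 highest of these arrays were with saline. It fell by 1.61 at the high dose (SE 0.31, adjusted p = 1.3e-05), and by 0.98 as the mean of its probe sets. At the low dose it fell by 0.75 (adjusted p = 0.0479), a call lost without the filter on low values (adjusted p = 0.0616), with quantile normalization (adjusted p = 0.0679), with the glial covariates (adjusted p = 0.179) and with number stretch as a block (adjusted p = 0.2). Dcc, the receptor through which netrin-1 attracts, did not pass the test at the high dose (-0.36, adjusted p = 0.0866) or at the low dose (-0.42, adjusted p = 0.0532).

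Slit2 fell by 0.96 at the high dose (SE 0.23, adjusted p = 0.000337), a call lost with the glial covariates (-0.66, adjusted p = 0.0886), and its receptor Robo1 fell by 0.66 (SE 0.13, adjusted p = 1.96e-05) and, at the low dose, by 0.45 (SE 0.13, adjusted p = 0.00327). The low-dose call of Robo1 was lost with the glial covariates (adjusted p = 0.0867) and with number stretch as a block (adjusted p = 0.106). Robo1 was the only Robo above the filter.

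Some of the genes that fell are also known from oligodendrocytes. Sema4d, a transmembrane semaphorin made by oligodendrocytes as well as neurons, lay between 4.72 and 6.32 at the high dose (median 5.11), against 5.36 to 7.36 with saline (median 6.41). It fell by 1.14 (SE 0.23, adjusted p = 3.13e-05), and the change was -0.53 with the glial covariates (adjusted p = 0.163) and -0.56 as the mean of its probe sets. Sema6a fell by 0.70 at the high dose and 0.85 at the low dose, and its low-dose change was -0.15 with the glial covariates (adjusted p = 0.719) and -1.01 with stretch as a block (adjusted p = 0.0564). Unc5b, a receptor of repellent netrin signals, fell by 0.72 at the low dose (adjusted p = 0.034), and that value was 0.01 with the glial covariates (adjusted p = 0.985) and -1.18 with stretch as a block (adjusted p = 0.0577). With the glial covariates 18 guidance genes were called at the high dose, and Nrp1, Sema4c, Efnb1, Plxna4, Plxna2, Plxnd1, Epha4, Efnb2, Sema3a and Ntn1 lost none of theirs at the high dose under any alternative run. In dSPN the oligodendrocyte list mean was itself lower at both doses, so dose and glial message can hardly be told apart in this fit. The part of glial message in these and the other changes was not tested.

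The semaphorins Sema4f, Sema6b and Sema6d completed the high-dose fall, at -0.89, -0.59 and -0.63. At the low dose 20 of 57 guidance genes were called, 3 higher and 17 lower, where 34.1% of all genes were called, 15.1% higher and 19% lower. Nrp1, Sema4c and Efnb1 were the 3 that rose. The median change of the 57 was -0.24, against -0.04 for all genes, and 3 genes had groups that did not overlap (Sema4c, Epha4 and Sema3a), against 4.8% of all genes. No number stretch held both saline and low-dose arrays of lesioned dSPN, so low dose and stretch can hardly be told apart. With stretch as a block fewer guidance genes were called at the low dose.

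**Figure D2:**
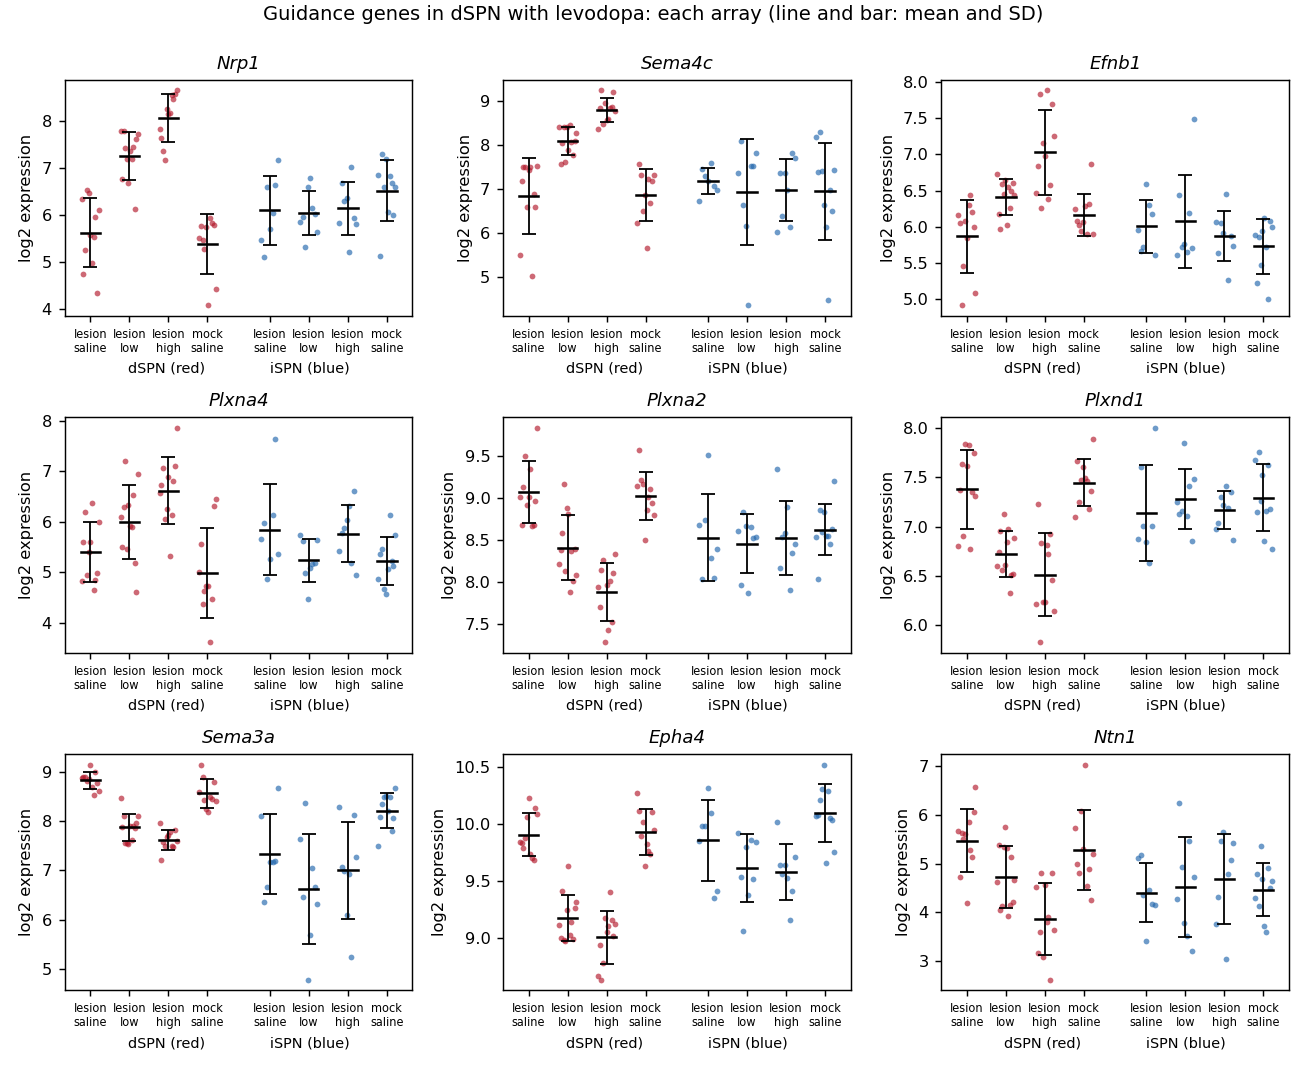
Log2 expression of 9 guidance genes on each array (points; dSPN red, iSPN blue), with the mean and SD of each group (lines and bars), in lesioned mice with saline, low and high dose and then mock-lesioned mice. In dSPN the high-dose Nrp1 arrays start at 7.17, above the highest saline array at 6.53, and in iSPN the high-dose arrays lie between 5.22 and 7.02, against 5.10 to 7.17 with saline.

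The doses were compared directly in dSPN, and 6 guidance genes differed, where 6.8% of all genes were called, 3.14% higher and 3.66% lower. Higher at the high dose than at the low dose were Nrp1 by 0.82 (SE 0.25, adjusted p = 0.0298), Efna5 by 0.64 (adjusted p = 0.0341), Efnb1 by 0.62 (adjusted p = 0.023), Ntn3 by 0.60 (adjusted p = 0.0401) and Sema6c by 0.28 (adjusted p = 0.0404). Plxna2 was lower by 0.53 (SE 0.15, adjusted p = 0.023). In all 6 the call was lost with number stretch as a block, where the change of Nrp1 was 1.00 (adjusted p = 0.208). Sema6c lost its call under 3 alternatives, among them the mean of its probe sets (0.17, adjusted p = 0.124). Ntn3 lost its call also with dSPN arrays fitted alone (0.60, adjusted p = 0.0587). As the mean of probe sets the difference of Plxna2 was -0.30. Of the high-dose arrays 9 of 11 came from 1 stretch, and of the low-dose arrays 11 of 12 came from another.

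High-dose dSPN also differed from mock-lesioned dSPN. Of the guidance genes 29 were called, 10 higher and 19 lower, where 43.4% of all genes were called, 18.4% higher and 25% lower. In 6 the groups did not overlap, against 11.1% of all genes. Nrp1 was higher by 2.70, Sema4c by 1.94, Plxna4 by 1.63, Efnb1 by 0.87 and Ntn3 by 0.70. Sema4b, a transmembrane semaphorin, was lowest at -1.79 (SE 0.42, adjusted p = 0.000358), with 3.18 to 5.81 at the high dose (median 4.16), against 5.03 to 6.77 in mock-lesioned dSPN (median 6.21). Its groups overlapped in part, and it was called neither for the lesion (-0.95, adjusted p = 0.303) nor for the high dose against saline. As the mean of its probe sets Sema4b was at -1.15. Ntn1 was lower than mock by 1.42, Plxna2 by 1.14, Ntng1 by 1.08 and Sema4d by 1.03. Oligodendrocyte markers were lower for 10 of 11 in this comparison, and with the glial covariates the Sema4d value was -0.51 (adjusted p = 0.173). As the mean of its probe sets Ntn1 was at -0.66 and Sema4d at -0.53. With stretch as a block the call of Ntn3 was lost (0.56, adjusted p = 0.153).

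The lesion comparison was also made in iSPN. After the lesion 11 of 57 guidance genes were called, 4 higher and 7 lower than in mock-lesioned iSPN, where 6.2% of all genes were called, 3.19% higher and 3.01% lower. In none of the 57 did the groups stand clear of each other, against 0.671% of all genes. Of the 10 mock-lesioned iSPN arrays, 9 lie in 1 number stretch that holds 1 of the 7 lesioned arrays with saline. With stretch as a block no iSPN lesion call was left, and lesion and stretch can hardly be told apart here. Fitted on iSPN arrays alone 2 guidance genes were called, and with array weights 4.

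Ntng1, which encodes netrin-G1, rose most. It lay between 5.50 and 7.85 in lesioned iSPN with saline (median 6.83, n = 7), against 4.17 to 6.97 in mock-lesioned iSPN (median 5.17, n = 10). All but 1 of the lesioned arrays were above the mock median by more than 1 unit, and 1 mock array reached 6.97. The change was 1.62 (SE 0.31, adjusted p = 0.000166), a 3.07-fold difference, and 1.69 with stretch as a block (adjusted p = 0.121). The other 2 probe sets above the filter changed by 1.36 and 0.69.

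Sema5b, a transmembrane semaphorin, lay between 7.70 and 10.21 in lesioned iSPN (median 9.14), against 6.05 to 9.39 in mock-lesioned iSPN (median 7.60). It rose by 1.45 (SE 0.38, adjusted p = 0.0106), and by 0.90 with stretch as a block (adjusted p = 0.741). Nrp2, the second neuropilin, rose by 0.78 (SE 0.24, adjusted p = 0.0367), a value of 0.03 with stretch as a block (adjusted p = 0.994). It lost its call also with the glial covariates (0.74, adjusted p = 0.0527) and without the 1 mock array that was least like its group (0.75, adjusted p = 0.0536). Sema7a, a lipid-anchored semaphorin, rose by 0.59 (SE 0.17, adjusted p = 0.0211).

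Sema3a fell in lesioned iSPN. It lay between 6.37 and 8.68 (median 7.18), against 7.50 to 8.66 in mock-lesioned iSPN (median 8.27), and 5 of the 7 lesioned arrays were below every mock array. The change of -0.88 (SE 0.28, adjusted p = 0.0426) was near the threshold and lost its call under 6 alternatives, at -0.55 (adjusted p = 0.0619) as the mean of the probe sets and -1.42 (adjusted p = 0.139) with stretch as a block. Dcc lay between 7.44 and 8.85 in lesioned iSPN (median 8.22), against 8.40 to 9.77 in mock-lesioned iSPN (median 8.80), and fell by 0.69 (SE 0.20, adjusted p = 0.0269). The other 2 probe sets of Dcc changed by -0.08 and 0.22, and the mean of the 3 by -0.18 (adjusted p = 0.557). Epha8 fell by 0.63, Efnb3 by 0.53, Ephb1 by 0.50, Sema6b by 0.44 and Efnb2 by 0.38.

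With levodopa in iSPN the share of guidance genes called was 7.02% at the high dose and 3.51% at the low dose. These shares were near or below those of all genes. At the high dose 4 of 57 were called against lesioned iSPN with saline, 1 higher and 3 lower, where 9.86% of all genes were called (6.27% higher and 3.59% lower). At the low dose 2 were called, both lower, where 4.18% of all genes were called (2.41% higher and 1.77% lower). In no guidance gene did either dose group stand clear of saline, against 1.57% of all genes at the high dose and 0.377% at the low dose. Both comparisons share the saline arrays with the lesion comparison. Ntng1 lay between 4.51 and 6.77 at the low dose (median 5.33) and 4.29 and 5.82 at the high dose (median 5.08), and 3 of the 8 high-dose arrays were above the lowest saline array at 5.50. It fell by 1.37 at the low dose (SE 0.32, adjusted p = 0.00589) and by 1.65 at the high dose (SE 0.32, adjusted p = 0.00023). Within the stretch that holds both groups the values were -1.41 at the low dose (adjusted p = 0.319) and -1.25 at the high dose (adjusted p = 0.193), with 4 and 2 saline arrays. As the mean of its probe sets the low-dose value was -0.87, and with stretch as a block the high-dose call was lost (-1.51, adjusted p = 0.0782).

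Sema5b fell by 1.52 at the low dose (SE 0.40, adjusted p = 0.0148) and differed by -0.38 at the high dose (adjusted p = 0.642). Fitted on iSPN arrays alone, the low-dose value was not called (adjusted p = 0.122), nor with stretch as a block (-1.56, adjusted p = 0.0516), and as the mean of its probe sets it was -0.82. Plxnb3, a plexin of oligodendrocytes and other cells, fell by 0.86 at the high dose (SE 0.22, adjusted p = 0.0061), but 1 saline array at 6.47 stood apart from the others, and with stretch as a block the call was lost (-0.85, adjusted p = 0.17). Ephb1 fell by 0.50 (adjusted p = 0.0256), a call lost under 4 alternatives, among them the glial covariates (-0.37, adjusted p = 0.16). Efna3, a lipid-anchored ephrin, rose by 0.45 (adjusted p = 0.0443), a call lost under 6 alternatives. Between the doses no iSPN guidance gene was called, and 0.173% of all genes were called (0.113% higher, 0.0603% lower). An unadjusted p under 0.05 was seen in 7 of the 57, against 1395 of all 13271 genes. In 0.0678% of all genes and in none of the guidance genes the dose groups did not overlap.

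Against mock-lesioned iSPN, high-dose iSPN had 15 guidance genes called, 4 higher and 11 lower, where 18.7% of all genes were called, 10.4% higher and 8.27% lower. With stretch as a block no guidance gene was called. Sema5b was higher by 1.08, Sema4a by 0.79, Sema7a by 0.59 and Efna3 by 0.38. Sema3a was lower by 1.21, Unc5b by 1.20, Ephb1 by 1.00, Sema6d by 0.86 and Dcc by 0.79, and Ephb1 was the only one whose groups did not overlap (1.75% of all genes), with 7.99 to 8.63 at the high dose, against 8.97 to 9.78 in mock-lesioned iSPN. Oligodendrocyte markers were lower for 8 of 11 in this comparison, and with the glial covariates the calls of Unc5b (-0.86, adjusted p = 0.067), Sema6d (-0.46, adjusted p = 0.204), Sema4a (0.61, adjusted p = 0.116), Sema5b (0.98, adjusted p = 0.126) and Efna3 (0.37, adjusted p = 0.131) were lost. As the mean of probe sets Unc5b was at -0.64, Dcc at -0.49, Sema5b at 0.68 and Efna3 at 0.23.

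**Figure D3:**
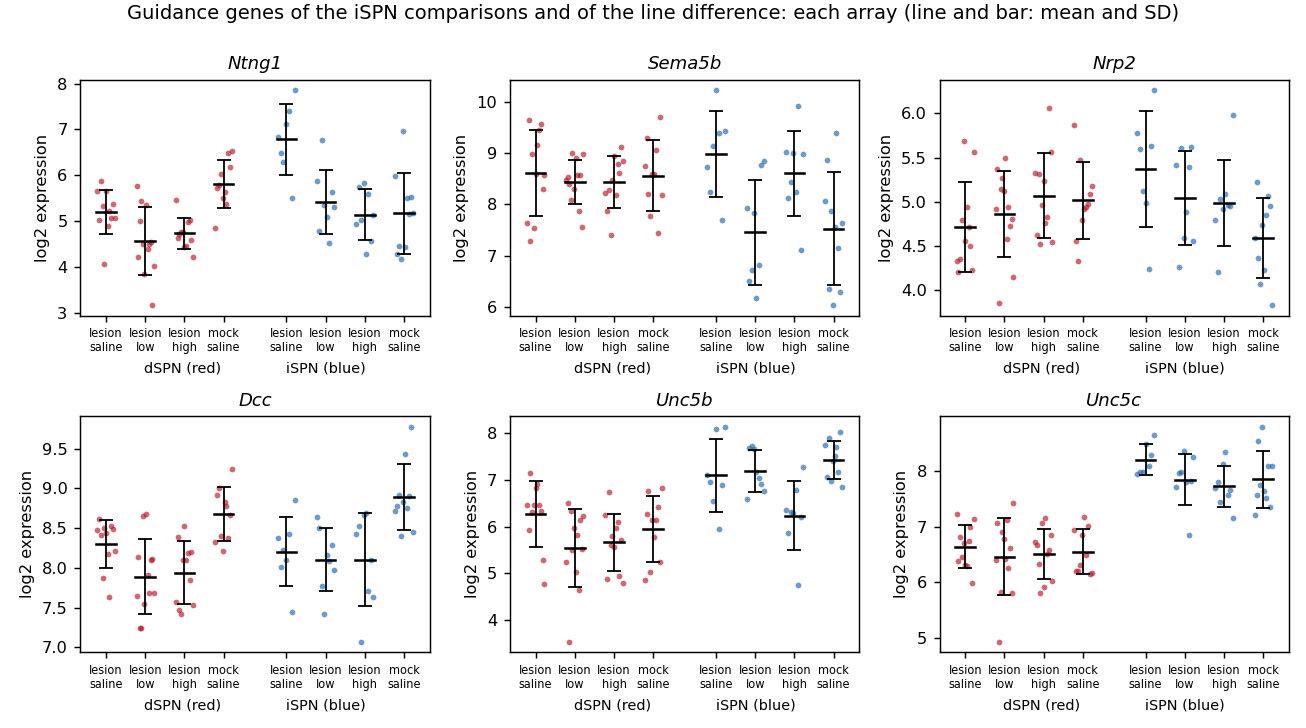
Log2 expression of 6 guidance genes on each array (points; dSPN red, iSPN blue), with the mean and SD of each group (lines and bars). Ntng1 is highest in lesioned iSPN with saline (median 6.83), and Unc5b and Unc5c are lower in dSPN than in iSPN.

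The lines themselves were compared in mock-lesioned mice. No number stretch held arrays of both lines, so line and stretch cannot be told apart here. No fit with stretch as a block is given for this comparison. Between dSPN and iSPN 9 of 57 guidance genes differed, 1 higher and 8 lower in dSPN, where 22.5% of all genes were called, 11.6% higher and 10.9% lower. The netrin receptors Unc5b and Unc5c differed most. Unc5c lay between 6.15 and 7.17 in dSPN (median 6.40), against 7.22 to 8.79 in iSPN (median 7.69), a difference of -1.30 (SE 0.21, adjusted p = 1.67e-06). Unc5b lay between 4.86 and 6.83 in dSPN (median 6.14), against 6.84 to 8.02 in iSPN (median 7.46), a difference of -1.48 (SE 0.30, adjusted p = 8.65e-05). These were the only 2 whose groups did not overlap, against 2.28% of all genes.

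Oligodendrocyte markers were also lower in dSPN in this comparison, 8 of 11, and the Unc5b difference was -0.89 with the glial covariates (adjusted p = 0.0462) and -0.90 as the mean of its probe sets. Nrp1 was lower in dSPN by 1.14 (SE 0.27, adjusted p = 0.000818), with 4.07 to 5.94 in dSPN (median 5.63), against 5.12 to 7.29 in iSPN (median 6.63). Plxnb2, the receptor of Sema4c, was lower in dSPN by 1.06 (SE 0.20, adjusted p = 3.89e-05) and Sema3e by 0.65 (SE 0.15, adjusted p = 0.000748). Sema5b was higher in dSPN by 1.03 (SE 0.35, adjusted p = 0.0231), a call lost without 1 iSPN array (0.90, adjusted p = 0.059) and with the glial covariates (0.82, adjusted p = 0.191). Markers of cholinergic interneurons, which carry Drd2 as well, were lower in dSPN for 3 of 4 genes, and their part in these differences was not tested.

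Whether an effect differed between the lines was tested by an interaction, taking the iSPN effect from the dSPN effect. For the high dose 16 guidance genes were called, 7 higher and 9 lower, where 25% of all genes were called, 10.5% higher and 14.5% lower. Nrp1 differed by 2.42 (SE 0.40, adjusted p = 1.8e-06), since it changed by 2.46 in dSPN and 0.04 in iSPN. Sema4c differed by 2.18, Plxna4 by 1.30, Efnb1 by 1.29, Ntng1 by 1.18 and Efna5 by 1.06, and Ntn1 by -1.90, Plxna2 by -1.19, Plxnd1 by -0.89, Sema6b by -0.83, Sema4f by -0.81, Epha7 by -0.71, Epha4 by -0.63, Efnb2 by -0.63 and Efnb3 by -0.43. Epha1 was the remaining one, at 0.38. With stretch as a block 9 were called, and Efna5, Efnb3, Epha4, Ntn1, Ntng1 and Plxna4 were among those that lost their calls. Ntng1 (0.99, adjusted p = 0.0944) and Efnb3 (-0.40, adjusted p = 0.0892) lost theirs also with the glial covariates, and as the mean of probe sets Ntn1 was at -1.18, Plxna2 at -0.79 and Efna5 at 0.66 (adjusted p = 0.0584).

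For the low dose 7 guidance genes were called, 2 higher and 5 lower, where 14.8% of all genes were called (6.99% higher and 7.79% lower), led by Nrp1 at 1.70 (adjusted p = 0.00122) and Sema4c at 1.50 (adjusted p = 0.0254), with Plxnd1 lowest at -0.80. The call of Sema4c was lost with stretch as a block (1.15, adjusted p = 0.341) and with array weights (1.26, adjusted p = 0.0655), and that of Plxnd1 with stretch as a block (-0.74, adjusted p = 0.143) and with the glial covariates (-0.69, adjusted p = 0.0574). For Sema3a, which fell in dSPN at both doses, the interaction was not called at the high dose (-0.87, adjusted p = 0.0847) or the low dose (-0.24, adjusted p = 0.748), so a difference between the lines was not shown for it. For the lesion 5 were called, 1 higher and 4 lower, where 4.86% of all genes were called (1.65% higher and 3.21% lower), with Plxnb2 at 0.99, Ntng1 at -2.22 (SE 0.41, adjusted p = 0.000105), Epha10 at -1.21, Nrp2 at -1.08 and Sema7a at -0.86. None of the 5 was called with stretch as a block, where Ntng1 was at -2.28 (adjusted p = 0.0526). With the glial covariates Plxnb2 (0.93, adjusted p = 0.0647) and Epha10 (-1.12, adjusted p = 0.0519) lost their calls.

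**Figure D4:**
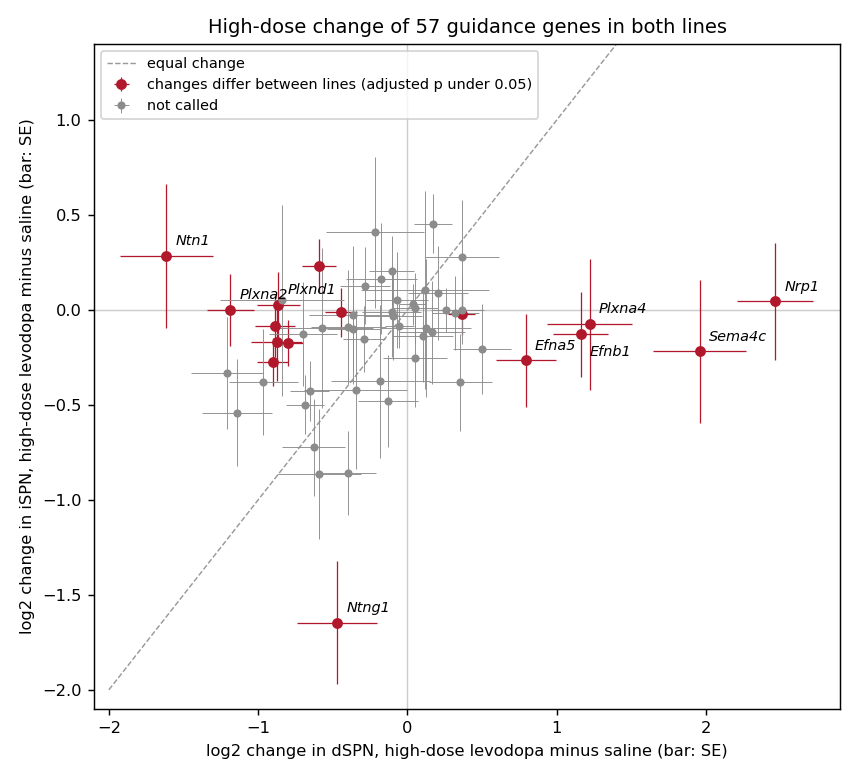
High-dose levodopa minus saline in dSPN (horizontal axis) and iSPN (vertical axis), as log2 change with SE, for 57 guidance genes; red points are the 16 whose changes differ between the lines. Nrp1 lies at 2.46 in dSPN and 0.04 in iSPN, Ntng1 at -0.47 and -1.65.

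Of a list of 76 partners and effectors of these proteins, 70 were tested, among them the collapsin response mediators, actin regulators and adhesion co-receptors. At the high dose in dSPN 14 rose and 22 fell, where 45.6% of all genes were called, and at the low dose 10 rose and 24 fell, where 34.1% were called. Changes of the 70 ranged from -1.40 to 4.19 at the high dose and from -1.18 to 3.88 at the low dose. Among those that rose, Vasp, an actin polymerase of the growth cone, rose by 1.90 at the high dose and 1.33 at the low dose, and Dpysl5, a collapsin response mediator, by 1.24 at the high dose. Lowest were Srgap2, a Robo-binding GTPase-activating protein, at -1.40 and -1.04, Neo1, the netrin and RGM receptor neogenin, at -1.31 and -1.18, and the kinase Abl1 at -1.24 and -0.90, with Mical3 at -1.03 at the low dose.

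In dSPN the lesion lowered 1 partner, where 2.48% of all genes were called. In iSPN the lesion raised 3 and lowered 4, where 6.2% were called, with differences of the 70 from -0.67 to 1.37. Among the called were Srgap1 at 0.54, Evl at -0.30, Tiam1 at -0.40, Lrrc4, which encodes an NGL protein, at -0.55 and Flrt3 at -0.67. At the high dose in iSPN 7 rose and 2 fell, where 9.86% of all genes were called, and the differences of the 70 ran from -0.81 to 3.46. Gpc1 rose by 0.59, Tiam1 by 0.53 and Abl2 by 0.44, and Lrrc4c, the NGL partner of netrin-G1, fell by 0.36 and Ncam1 by 0.81. At the low dose 4 rose and 2 fell, where 4.18% were called, and the differences ran from -0.86 to 2.06. Among these were Abl2 at 0.66, Tiam1 at 0.43, Cntn1 at -0.42 and Ncam1 at -0.80.

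The other 12 guidance genes lay below the filter, with group means between 2.06 and 4.31. They were Efna1, Efna4, Epha2, Plxna3, Robo2, Robo3, Robo4, Sema3c, Sema3d, Sema3g, Sema5a and Unc5d. In a fit of all 18194 genes without the filter 1 of the 12 was higher and 1 lower at the high dose in dSPN, where 35.1% of all genes were called. Epha2, whose promoter with a CRE is shown above, was the higher one. It ran from 2.67 to 3.57 with saline (median 3.19), 3.41 to 4.67 at the low dose (median 4.10) and 3.69 to 5.19 at the high dose (median 4.15), all near the bottom of the scale, and no high-dose array was as low as the highest saline array. Its change was 1.15 at the high dose (SE 0.15, adjusted p = 5.95e-10) and 0.87 at the low dose (adjusted p = 1.18e-06). Plxna3 was the lower one, at -0.40 and -0.49. In lesioned iSPN Sema5a differed by -1.29 from mock (adjusted p = 0.0072), where 4.17% of all genes were called without the filter. It lay between 2.64 and 3.10 in lesioned iSPN, near the bottom of the scale, against 2.64 to 6.34 in mock-lesioned iSPN. Lesion and stretch can hardly be told apart in this comparison, and no value with stretch as a block is given for Sema5a.

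Genes with several probe sets above the filter numbered 38, and in no comparison were probe sets of 1 gene called in opposite directions. In 9 of the 38, some probe sets were called and others not at the high dose in dSPN, and in 6 after the lesion in iSPN. Of the 57 tested genes, 15 were called in none of the 14 comparisons: Sema3b, Sema3f, Sema4g, Plxna1, Plxnb1, Efna2, Epha3, Epha5, Epha6, Ephb3, Ephb4, Ntn4, Ntng2, Unc5a and Slit3. Of the genes that match by letters only, Unc50 was tested and called in none of the 14 comparisons.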

How the data were processed

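Messenger RNA on tagged ribosomes was measured on Affymetrix mouse arrays, 1 mouse each, 77 in all. The values are the deposited log2 expression values per probe set, already normalized by the authors; RMA and the affy package are named in the submitters' processing notes. Array medians lay between 4.31 and 4.42, and no scanner file was used here. The number of arrays per group limits the precision.

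Of 45101 probe sets, 34958 had 1 gene symbol in the platform annotation, 932 several and 9211 none; only the first were named, and all 72 genes found matched the RefSeq table by Entrez ID. A gene was its probe set with the highest mean over all arrays. Genes whose mean passed the 40th percentile over probe sets were fitted in limma 3.58.1 (R 4.3.3) with 8 group means, 69 residual degrees of freedom and moderated variances, and p-values were adjusted by Benjamini-Hochberg within each of 14 comparisons; called means an adjusted p under 0.05. The scripts were tested on simulated data. Array numbers in the titles fall into 7 stretches, tried as a block. Alternatives were other filters, the mean of a gene's probe sets, quantile normalization, array weights, each line fitted alone, glial marker means as covariates and stretch as a block; fits within a stretch and without the least typical array were added after seeing the data.

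The genes, gene lists and tests were chosen with earlier results of these data known. Named are the 10 highest and 10 lowest called guidance genes in the lesion, high-dose and low-dose comparisons of each line and 5 of each elsewhere, a fixed panel (Sema3a, Sema3e, Nrp1, Nrp2, Plxnd1, Epha4, Epha5, Efna5, Efnb3, Dcc, Ntn1, Ntng1, Slit1, Robo1), and up to 6 called partners a comparison; some called partners are not reported here. Plxnb2, Sema4b, Ephb6, Epha10, Epha2, Plxna3 and Sema5a were also named after their values were seen where no rule listed them.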

Additional observations from a re-analysis of the deposited data

Results flagged for a closer look

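Single arrays stood apart from the rest of their group in 16 of 205 groups of named guidance genes, counting mock-lesioned dSPN and the 4 iSPN groups and not the lesioned dSPN groups, which hold more than 10 arrays, by the gap of the highest or lowest array relative to the range, where chance alone gives about 1 in 20. In dSPN after mock lesion these were Efna5 at 6.39, Efnb1 at 6.86 and Slit2 at 6.04. In iSPN after mock lesion they were Epha5 at 4.60, Sema6a at 8.16 and Sema6b at 10.50. In lesioned iSPN with saline they were Plxnb3 at 6.47, Sema4d at 5.51 and Sema6b at 8.98. In low-dose iSPN they were Efnb1 at 7.49, Sema4f at 8.38, Sema6a at 5.31, Sema7a at 8.63, Slit1 at 5.56 and Unc5c at 6.86, and in high-dose iSPN Plxnb3 at 3.08. The Plxnb3 array at 6.47 is among the 7 saline arrays against which the high-dose fall of Plxnb3 was measured.

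Effects that differed between the lines by a test of the difference itself (dSPN minus iSPN) were seen for all 3 contrasts. For the lesion they were Plxnb2 at 0.99, Sema7a at -0.86, Nrp2 at -1.08, Epha10 at -1.21 and Ntng1 at -2.22. For the high dose they were Nrp1 at 2.42, Sema4c at 2.18, Plxna4 at 1.30, Efnb1 at 1.29, Ntng1 at 1.18, Efna5 at 1.06, Epha1 at 0.38, Efnb3 at -0.43, Efnb2 at -0.63, Epha4 at -0.63, Epha7 at -0.71, Sema4f at -0.81, Sema6b at -0.83, Plxnd1 at -0.89, Plxna2 at -1.19 and Ntn1 at -1.90, and for the low dose Nrp1 at 1.70, Sema4c at 1.50, Efnb2 at -0.46, Epha4 at -0.49, Efnb3 at -0.53, Sema6b at -0.67 and Plxnd1 at -0.80.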

How the results depend on the processing

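The high-dose count of 25 in dSPN ran from 18 to 30 over the alternatives. With number stretch as a block the counts were 0 of 11 for the iSPN lesion, 0 of 4 for the iSPN high dose, 9 of 20 for the dSPN low dose, 0 of 6 between doses in dSPN, 0 of 15 for high-dose iSPN against mock, 0 of 5 for the lesion interaction, 9 of 16 for the high-dose interaction and 3 of 7 for the low-dose interaction. As a random block its correlation was -0.021. Fitted on each line alone, iSPN had 2, 1 and 0 calls for lesion, high and low dose. Array weights gave 2 for the dSPN lesion, 4 for the iSPN lesion and 1 for the iSPN low dose. Without the filter 1 was called between doses in iSPN, and above the 60th percentile 1 for the iSPN low dose and 3 for the lesion interaction. The mean of probe sets gave 8 for the iSPN high dose and 6 for the iSPN low dose. Glial covariates gave 1 for the dSPN lesion, 2 for the iSPN high dose, 5 between lines, 3 for the lesion interaction and 3 for the low-dose interaction, and turned Unc5b at the low dose in dSPN to 0.0129. Within its stretch the iSPN high dose had 1 call and the low dose 0. The cause of these shifts was not tested. No paired analysis was possible because each array came from a single mouse and the labels pair no mice across groups. Signal near the bottom of the scale limits what can be said of genes below the filter.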

Other observations

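Below the filter, Unc5d differed by 0.61 between the high dose and saline in lesioned iSPN (limma without the filter, adjusted p = 0.0165) and by 0.75 between the high and the low dose (adjusted p = 0.0292). Of all genes, 6.47% were called in the former comparison and 0.121% in the latter. No number stretch held iSPN arrays of both doses, so dose and stretch can hardly be told apart in the latter.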
